A study of Rattus norvegicus with 18 samples.

Results

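Liver cells make cholesterol from acetyl-CoA through mevalonate, isoprenoids, squalene and lanosterol, and the transcription factor SREBP-2, encoded by Srebf2, drives nearly every enzyme of that route. SREBP-2 is held in the endoplasmic reticulum by its escort Scap together with the Insig proteins while sterols are plentiful, and is released to the nucleus when they run low. Cholesterol that is not needed is esterified for storage or pumped out by ABC transporters, several of which are targets of the oxysterol receptor LXR. The genes described here are the enzymes of cholesterol synthesis with SREBP-2 and its partners and the genes of sterol esterification, efflux, uptake and transport. They were listed by name and known function, but with earlier results of these data known. The rule for the list names no measured value, while the probe set of a gene was chosen by its mean. In all, 32 genes were listed and 29 were read on the array. Each was read through the probe set with 1 gene symbol that had the highest mean over all arrays, out of 14217 genes read in that way. Of the 29, 17 take part in synthesis, 4 in regulation (Srebf2, Scap, Insig1 and Insig2), 1 in esterification (Soat1), 4 in efflux (Abca1, Abcg1, Abcg5 and Abcg8) and 3 in uptake and intracellular transport (Scarb1, Npc2 and Stard4). For Hmgcs1, Soat2 and Npc1 no probe set with exactly 1 symbol was found in the annotation used, and they were not analysed here.

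Primary hepatocytes of Wistar rats were exposed in culture, after attachment, to EMD, a dual agonist of PPARα and PPARγ, at 30 or 100 µM for 24 or 72 h. Control cultures received the vehicle, 0.1% DMSO, for the same times, and all cultures were kept in medium with insulin, hydrocortisone and gentamicin. Each of the 6 groups held 3 arrays (Affymetrix rat arrays), 18 in all. The labels give neither the sex nor the age of the animals. By the study's methods, the cells of each animal received each of the treatments and the 3 arrays of a group are biological replicates, but which replicate number stands for which animal is not stated. Where the replicate number as a block in the fit changes a call, its value is given beside the result. The values were log2 expression estimates, and array medians ran from 5.04 to 5.11. All 9 hepatocyte markers measured lay above the median probe set in each group, but 2, 1, 5 and 4 of the 9 fell and 0, 0, 1 and 0 rose with 30 and 100 µM at 24 h and with 30 and 100 µM at 72 h. Of all probe sets 2.01%, 2.95%, 9.22% and 9.68% fell in the same order. The summed linear level of the 9 markers at 72 h ran from 88650 to 97480 with DMSO, from 72470 to 76890 with 30 µM and from 66680 to 74290 with 100 µM. At 72 h the means of Alb (14.75, 14.76 and 14.76 with DMSO, 30 and 100 µM) and Hnf4a (10.30, 10.32 and 10.31) hardly differed. Those of Apoa1 (13.73, 12.98 and 12.78) and Serpina1 (13.67, 12.69 and 12.49) were lower with EMD. The part of the marker levels in the changes described here was not tested. Of the 29 genes, Abcg5 and Abcg8 had means under the median of all probe set means (5.10). On the scale of log2 values a difference of 1 is a doubling, but small signals are compressed, so that changes of dim probe sets are understated.

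Changes are differences between group means ± the standard error of limma's fit over all 18 arrays, with 3 arrays in each group. A gene rose or fell where limma's moderated test gave it a p under 0.05 after Benjamini-Hochberg adjustment over 31042 probe sets. Comparisons at the same time share the 3 DMSO arrays. In whole cultures, fewer cells of a type and less RNA per cell cannot be told apart. A pair of arrays stood farthest apart from their groups for the synthesis genes. DMSO 24 h replicate 2 was low, at a mean of -0.36 from its group over the 17 genes, with 1 of the 17 above the group mean. EMD 100 µM 24 h replicate 1 was high, at 0.38, with 16 of 17 above. Replicate 1 lay above its group mean in each of the 6 groups (0.03 to 0.38) and replicate 2 below it in each (-0.36 to -0.02). The spread of these genes thus ran with the replicate number and was not confined to the named pair. Counts that rest on the named pair are given with and without those arrays.

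The promoter sequence of 23 of the 29 genes was at hand from RefSeq (build GRCr8), as a window of 250 bases before to 50 bases after the start of the gene. Shown here are the 250 bases before the start of Fdps and Insig1, which rose in all 4 comparisons of EMD with DMSO, and of Lss and Hsd17b7, the synthesis genes with the largest rises with 30 µM at 72 h. Capitals mark matches to the letters CCAAT on either strand, ATTGG being the same letters on the other strand. Fdps lies on the - strand of chromosome 2 (chr2:176804817-176805066), Insig1 on the - strand of chromosome 4 (chr4:8057770-8058019), Lss on the - strand of chromosome 20 (chr20:12118231-12118480) and Hsd17b7 on the - strand of chromosome 13 (chr13:84722755-84723004). All are written 5′ to 3′ in the direction of the gene.
Fdps: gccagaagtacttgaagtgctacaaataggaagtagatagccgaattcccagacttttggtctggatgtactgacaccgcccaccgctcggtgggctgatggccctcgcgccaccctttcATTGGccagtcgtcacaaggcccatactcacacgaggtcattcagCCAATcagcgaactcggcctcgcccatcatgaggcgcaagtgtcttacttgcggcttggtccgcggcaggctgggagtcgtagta
Insig1: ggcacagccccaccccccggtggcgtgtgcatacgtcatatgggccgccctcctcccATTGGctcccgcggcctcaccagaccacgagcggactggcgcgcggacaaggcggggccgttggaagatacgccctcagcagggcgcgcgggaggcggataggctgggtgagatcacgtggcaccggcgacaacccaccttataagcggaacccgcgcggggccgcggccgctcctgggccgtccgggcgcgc
Lss: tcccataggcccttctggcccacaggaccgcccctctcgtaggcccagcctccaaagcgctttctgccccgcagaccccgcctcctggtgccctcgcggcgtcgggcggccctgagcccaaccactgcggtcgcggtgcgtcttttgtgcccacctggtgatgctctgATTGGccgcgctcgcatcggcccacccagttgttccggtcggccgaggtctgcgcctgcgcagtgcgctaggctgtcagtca
Hsd17b7: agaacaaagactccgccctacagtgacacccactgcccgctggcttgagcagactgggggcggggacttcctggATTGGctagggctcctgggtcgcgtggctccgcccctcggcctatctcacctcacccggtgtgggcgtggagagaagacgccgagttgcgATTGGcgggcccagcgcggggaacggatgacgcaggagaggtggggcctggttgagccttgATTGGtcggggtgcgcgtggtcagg

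A CCAAT box, the site of the factor NF-Y, a known partner of SREBP at sterol-regulated promoters, was searched by the letters CCAAT on both strands. It was found in 18 of the 23 windows (78.3%), 11 of the 14 synthesis windows among them, whereas 37.5% of all 33469 windows and 38% of the 21851 windows of protein-coding genes held it. In the Fdps window the matches began at bases -130 and -85 from the start, and in that of Hsd17b7 at -176, -86 and -25. The GC box GGGCGG, a site of SP1, was found in 18 of the 23 windows and in 12 of the 14 synthesis windows, against 33.1% of all windows and 41.8% of protein-coding ones. One form of the sterol regulatory element, TCACNCCAC, was found in 0 of the 23 windows, against 1.12% of all. SREBP sites vary in sequence, and the count says only that these letters are not in these windows. None of the 3 motifs holds another within its letters, and no other motif was searched.

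**Figure D1:**
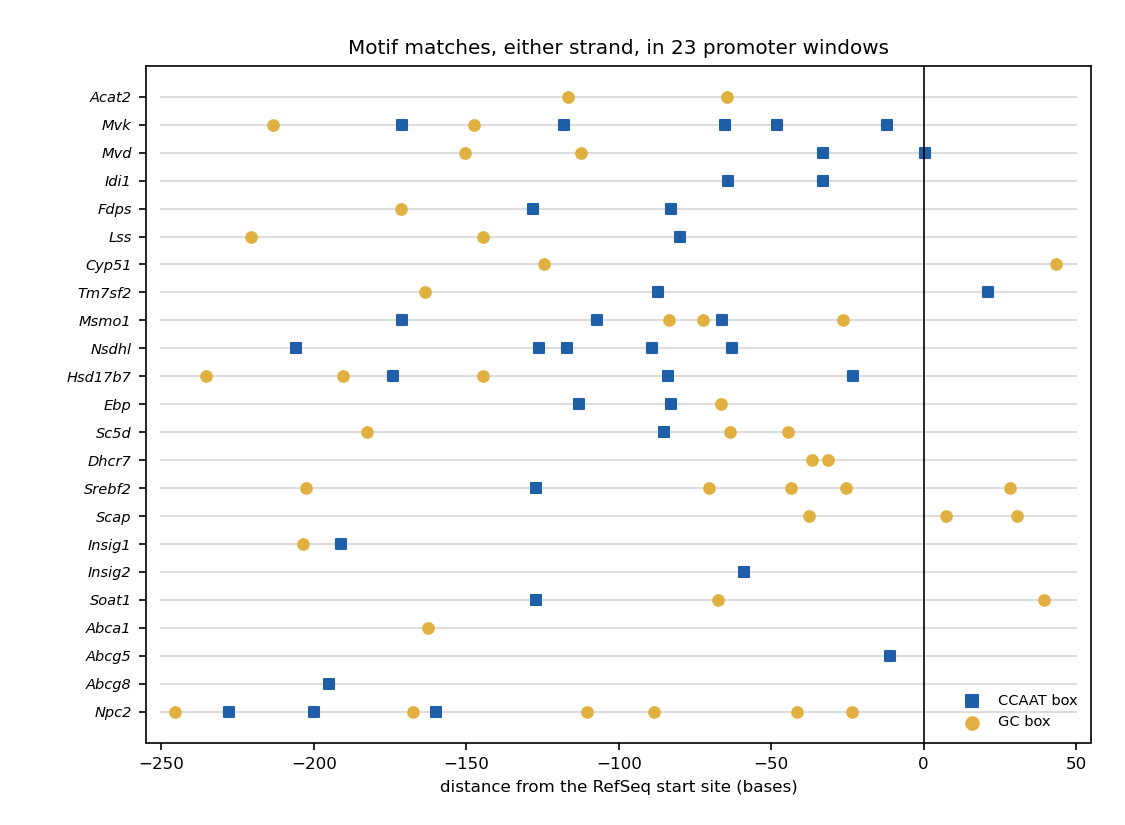
Matches to the CCAAT box (blue squares) and the GC box (yellow circles) on either strand in the promoter windows of 23 genes, by distance in bases from the RefSeq start site (0, black line). A CCAAT match is present in 18 of the 23 windows and a GC box in 18.

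Abcg5 and Abcg8 form a heterodimer that pumps sterols into bile, and their windows overlap, since the genes are read in opposite directions from starts 205 bases apart. The stretch between them is on chromosome 6 (chr6:15717731-15717935) and is written in the direction of Abcg5, on the + strand, with the single CCAAT match in capitals. It is shown because the arrays gave different calls for the genes that share it.
Abcg5 to Abcg8: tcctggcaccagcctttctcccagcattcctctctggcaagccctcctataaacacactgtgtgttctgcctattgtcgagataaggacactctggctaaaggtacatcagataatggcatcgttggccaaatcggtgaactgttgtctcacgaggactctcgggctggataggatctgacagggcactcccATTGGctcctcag

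With EMD, some of the enzymes of cholesterol synthesis rose at both times, Fdps throughout, as did Insig1, and Soat1, Abca1 and Abcg1 rose at 72 h with both doses. At 24 h, 30 µM raised 4 of the 29 genes (Fdps, Dhcr7, Insig1 and Abcg1) and lowered 0, while 3.35% of all probe sets rose and 2.01% fell. At 100 µM 8 of the 29 rose (Acat2, Fdps, Fdft1, Lss, Nsdhl, Hsd17b7, Dhcr7 and Insig1) and 0 fell, against 3.06% and 2.95% of all probe sets. At 72 h, 30 µM raised 11 and lowered 0, against 7.88% and 9.22%, and 100 µM raised 10 and lowered 1, against 7.42% and 9.68%. Without replicate 1 of 100 µM at 72 h, the last counts were 8 and 4, with Tm7sf2, Ebp and Srebf2 falling beside Insig2, and with weighted arrays 11 and 5, with Mvk as well. The median change of the 29 genes was 0.19, 0.35, 0.32 and 0.24 in the same order, and that of all probe sets -0.03, -0.01, 0.01 and 0.02. In all, 14 genes rose in at least 1 of these 4 comparisons, Fdps and Insig1 in all 4, Insig2 fell in 1, and 14 were called in none.

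The counts at 24 h hung on single arrays in fits without the replicate number as a block. With all arrays and that block, 6 genes were called with 30 µM and 8 with 100 µM at 24 h, and no call was lost. No array was left out of the fit with the block. With 30 µM a single gene of the 29 was called, 1 in place of 4, when replicate 2 or 3 of DMSO at 24 h or replicate 1 or 3 of 30 µM at 24 h was left out. The count was 2 when replicate 2 of DMSO at 72 h or replicate 2 or 3 of 30 µM at 72 h, which enter through the shared spread, was left out. With 100 µM it was 3 without EMD 100 µM 24 h replicate 1 and 4 without DMSO 24 h replicate 2. Over all 26 alternatives the calls of Fdps, Fdft1 and Lss at 100 µM were kept, 3 of 8, and none of the 4 at 30 µM. At 72 h 7 of 11 calls were kept with 30 µM (Fdps, Lss, Hsd17b7, Sc5d, Insig1, Abca1 and Abcg1) and 8 of 11 with 100 µM (Fdps, Lss, Insig1, Insig2, Soat1, Abca1, Abcg1 and Abcg5).

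**Figure D2:**
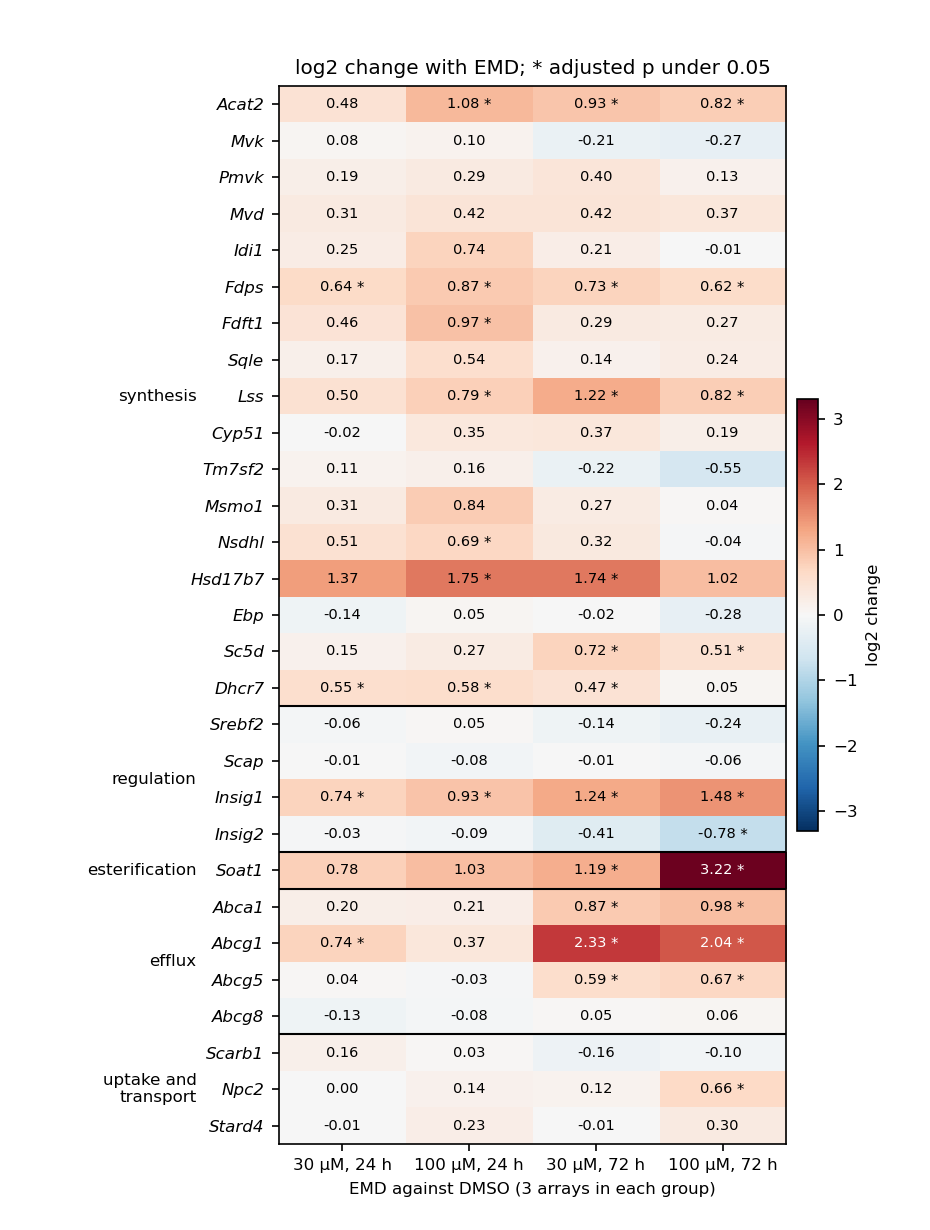
The log2 change of each of the 29 genes with EMD against DMSO at 2 doses and 2 times, grouped by role, with 3 arrays in each group; an asterisk marks an adjusted p under 0.05 in limma's moderated test. Fdps and Insig1 carry an asterisk in all 4 columns, and the deepest colour is Soat1 with 100 µM at 72 h (3.22).

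Of the 17 synthesis genes 2 rose with 30 µM at 24 h, 7 with 100 µM at 24 h, 6 with 30 µM at 72 h and 4 with 100 µM at 72 h, and none fell. In the same order 3.35%, 3.06%, 7.88% and 7.42% of all probe sets rose, and 2.01%, 2.95%, 9.22% and 9.68% fell. All 17 had a change above 0 with 100 µM at 24 h, with a median of 0.58, while 46.3% of all probe sets did. The median was 0.34 without replicate 2 of DMSO and 0.39 without replicate 1 of 100 µM, with 16 of 17 above 0 in each. With 30 µM at 24 h the median was 0.31, and it was 0.10 without replicate 2 of DMSO, 0.50 without replicate 1 of DMSO and 0.11 without replicate 1 of 30 µM. At 72 h it was 0.37 with 30 µM and 0.19 with 100 µM, the latter being 0.10 without replicate 1 and 0.29 without replicate 2 of that group. At 72 h 14 of the 17 lay above 0 with 30 µM and 12 with 100 µM, while 51.6% and 54.7% of all probe sets did. Mvk, Tm7sf2 and Ebp lay below 0 with both doses. In the mevalonate part (Acat2, Mvk, Pmvk, Mvd, Idi1 and Fdps), the rises were those of Acat2 and Fdps. Among the steps from squalene to lanosterol (Fdft1, Sqle and Lss) they were those of Fdft1 and Lss, and among the 8 later steps those of Nsdhl, Hsd17b7, Sc5d and Dhcr7.

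Fdps (1367667_at) makes farnesyl diphosphate, the branch point between sterols and other isoprenoids. Its levels at 24 h were 11.39, 10.68 and 11.36 with DMSO, 11.94, 11.60 and 11.82 with 30 µM, and 12.19, 11.95 and 11.91 with 100 µM. At 72 h they were 11.70, 11.59 and 11.49 with DMSO, 12.40, 12.25 and 12.33 with 30 µM, and 12.34, 12.10 and 12.20 with 100 µM. At both times all EMD arrays lay above all DMSO arrays, and the doses overlapped at 24 h and at 72 h. The rises were 0.64 ± 0.15 (limma adjusted p = 0.0175), 0.87 ± 0.15 (0.00151), 0.73 ± 0.15 (0.00255) and 0.62 ± 0.15 (0.00874) in the order of the plot of changes. The rise with 30 µM at 24 h did not pass without replicate 2 of DMSO, the lowest array (0.41, adjusted p = 0.0605), or without replicate 1 (0.0785) or 3 (0.0655) of 30 µM.

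Acat2 (1372462_at), the cytosolic thiolase that joins acetyl-CoA units at the start of the route, read 7.96, 7.41 and 8.26 with DMSO at 24 h and 9.56, 8.79 and 8.51 with 100 µM. At 72 h Acat2 read 7.99, 7.60 and 7.91 with DMSO, 8.79, 8.69 and 8.80 with 30 µM, and 9.07, 8.34 and 8.56 with 100 µM. These EMD groups did not overlap their DMSO groups. The rises were 1.08 ± 0.27, 0.93 ± 0.27 and 0.82 ± 0.27, and none of them was kept under all alternatives. The rise at 24 h did not pass without replicate 2 of DMSO (0.85, adjusted p = 0.122) or replicate 1 of 100 µM (0.77, adjusted p = 0.111). That with 30 µM at 72 h did not pass without replicate 2 of DMSO (adjusted p = 0.0962) or without replicate 1, 2 or 3 of 30 µM (0.0541 to 0.0703). That with 100 µM at 72 h was near the threshold (adjusted p = 0.0436) and did not pass when any of 11 arrays was left out, with an adjusted p up to 0.155 (replicate 2 of DMSO, replicate 1 of 100 µM). The other genes of the mevalonate part, Mvk, Pmvk, Mvd and Idi1, had changes from -0.27 (Mvk, 100 µM at 72 h) to 0.74 (Idi1, 100 µM at 24 h) and passed in no comparison of EMD with DMSO in the fit of all arrays.

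Fdft1 (1367839_at), squalene synthase and the first enzyme committed to sterols, read 8.65, 7.89 and 8.46 with DMSO at 24 h, 9.06, 8.47 and 8.83 with 30 µM, and 9.67, 9.17 and 9.08 with 100 µM. The 100 µM arrays all lay above DMSO, by 0.97 ± 0.18 (adjusted p = 0.0031), and above the 30 µM arrays, by 0.51. At 72 h the change was 0.29 with 30 µM and 0.27 with 100 µM and did not pass. Another probe set of Fdft1 rose by 0.57 with 100 µM at 24 h.

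Lss (1372973_at) folds squalene epoxide into lanosterol. Its levels at 24 h were 6.52, 6.26 and 6.66 with DMSO, 7.20, 6.83 and 6.92 with 30 µM, and 7.61, 7.15 and 7.06 with 100 µM. Its levels at 72 h were 6.67, 6.62 and 6.78 with DMSO, 7.73, 8.05 and 7.97 with 30 µM, and 7.85, 7.21 and 7.47 with 100 µM. No EMD array overlapped the DMSO arrays of its time. Lss rose by 0.79 ± 0.17 with 100 µM at 24 h, by 1.22 ± 0.17 with 30 µM at 72 h (2.34-fold, adjusted p = 5.37e-05) and by 0.82 ± 0.17 with 100 µM at 72 h, and the change with 30 µM at 24 h, 0.50, had an adjusted p of 0.104. Its other probe set rose by 0.49, 0.92 and 0.85 in the same 3 comparisons. Sqle, squalene epoxidase, had changes from 0.14 to 0.54 with a standard error of 0.36 and passed in none.

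Hsd17b7 (1389430_at), a sterol ketone reductase of the later steps, had the largest changes among the synthesis genes in 4 of 4 comparisons. At 24 h it read 6.91, 6.26 and 6.84 with DMSO, 8.50, 7.29 and 8.33 with 30 µM, and 9.11, 7.84 and 8.31 with 100 µM. The values at 72 h were 7.60, 7.46 and 7.69 with DMSO, 9.66, 8.76 and 9.57 with 30 µM, and 9.23, 7.62 and 8.97 with 100 µM. Replicate 2 was the lowest array of each EMD group, and only in the 100 µM group at 72 h did it fall within the DMSO range. The rise was 1.75 ± 0.40 with 100 µM at 24 h (3.36-fold, adjusted p = 0.0133) and 1.74 ± 0.40 with 30 µM at 72 h (3.35-fold, adjusted p = 0.00569). The rise with 100 µM at 24 h did not pass without replicate 2 of DMSO (adjusted p = 0.0708) or replicate 1 of 100 µM (0.0735). The change with 30 µM at 24 h was 1.37 (adjusted p = 0.0616) and did not pass. Neither did that with 100 µM at 72 h, 1.02 (adjusted p = 0.0991). With the replicate number as a block both passed (adjusted p = 0.000281 and 0.00145). The other probe set of Hsd17b7 passed with 100 µM at 72 h, at 1.07 (adjusted p = 0.0407), and in the comparisons in which the first one did.

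Of the remaining later steps, Nsdhl (1392988_at), which works with Msmo1 in removing methyl groups from the sterol ring, read 10.25, 9.91 and 9.81 with DMSO at 24 h and 10.83, 10.62 and 10.60 with 100 µM, a rise of 0.69 ± 0.16. That rise did not pass without replicate 2 or 3 of DMSO or replicate 1 of 100 µM (adjusted p from 0.0565 to 0.0625). The changes of Nsdhl at 72 h were 0.32 and -0.04, and that with 30 µM at 24 h, 0.51, passed with the replicate number as a block (adjusted p = 0.00793). Its other probe set rose in all comparisons but the last, by 0.64, 0.75 and 0.73.

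Sc5d (1387926_at), a sterol desaturase, had changes of 0.15 and 0.27 at 24 h and rises of 0.72 ± 0.16 and 0.51 ± 0.16 at 72 h. Sc5d read 9.98, 9.93 and 9.87 with DMSO at 72 h, 10.61, 10.63 and 10.71 with 30 µM, and 10.45, 10.39 and 10.46 with 100 µM, so that the 3 groups did not overlap. The rise at 100 µM was near the threshold (adjusted p = 0.0433) and did not pass without any 1 of the 9 arrays at 72 h or 3 of those at 24 h (adjusted p up to 0.116). A further probe set of Sc5d (1389111_at) rose at 24 h too, by 0.79 and 0.78, so that the absence of a call at 24 h depends on the probe set.

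Dhcr7 (1368189_at), a reductase of the last step of one branch of the route, read 9.34, 9.36 and 8.97 with DMSO at 24 h, 9.81, 9.66 and 9.84 with 30 µM, and 9.94, 9.66 and 9.81 with 100 µM. The levels of Dhcr7 at 72 h were 9.41, 9.32 and 9.09 with DMSO, 9.91, 9.84 and 9.50 with 30 µM, and 9.57, 9.13 and 9.28 with 100 µM. The last group overlapped DMSO and the other EMD groups did not. Dhcr7 rose by 0.55 ± 0.14, 0.58 ± 0.14 and 0.47 ± 0.14, and its change with 100 µM at 72 h was 0.05. Each of these rises was lost without replicate 3 of the DMSO group (adjusted p = 0.137, 0.0887 and 0.109), and without some arrays of the EMD group as well: replicates 1, 2 and 3 of 30 µM at 24 h (0.0502 to 0.107), replicates 1 and 3 of 100 µM at 24 h (0.0589 and 0.0769), and replicates 1 and 2 of 30 µM at 72 h (0.0992 and 0.107). At 72 h replicate 2 of DMSO mattered too (0.054).

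The later steps Cyp51, Tm7sf2, Msmo1 and Ebp passed in no comparison with DMSO in the fit of all arrays. Without replicate 1 of 100 µM at 72 h, Tm7sf2 fell by 0.82 (adjusted p = 0.00739) and Ebp by 0.40 (0.0429) with 100 µM at 72 h, and with weighted arrays both fell too (0.00765 and 0.0187), as did Mvk of the mevalonate part (-0.36, 0.00936). Cyp51 rose with 30 µM at 72 h in a fit on those arrays alone (0.37, adjusted p = 0.0468). Their changes ran from -0.55 (Tm7sf2, 100 µM at 72 h) to 0.84 (Msmo1, 100 µM at 24 h), and the 95% interval of the latter, 0.05 to 1.62, does not leave out a large rise.

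**Figure D3:**
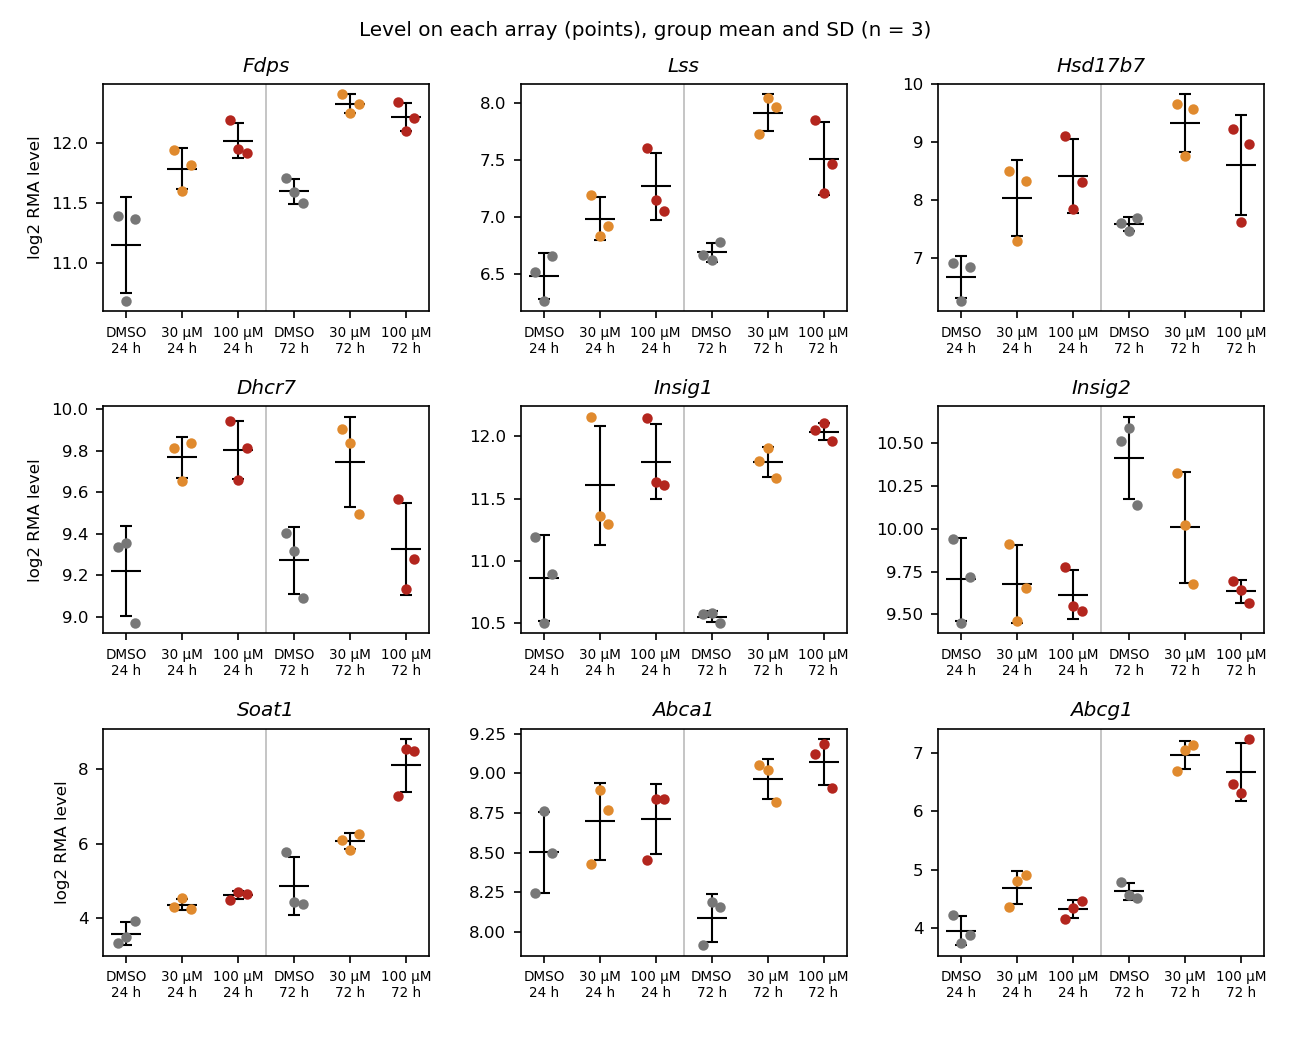
Log2 level of 9 genes on each of the 18 arrays (points) by group, with the group mean (bar) and the SD of 3 arrays (whiskers); each panel has its own scale. The Fdps arrays with EMD lie above the DMSO arrays of the same time, and the Soat1 arrays with 100 µM at 72 h (7.28 to 8.52) lie above all others.

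None of the synthesis genes differed between the doses by the test, though most lay higher with 100 than with 30 µM at 24 h and lower at 72 h. Between 100 and 30 µM at 24 h none of the 29 genes passed, and 0% of all probe sets rose or fell. At an unadjusted p under 0.05 there were 2 of the 29 (Acat2 at 0.59 and Fdft1 at 0.51) and 4.58% of all probe sets, and the other settings of the fit also called 0 of the 29. All 17 synthesis genes had a value above 0, with a median of 0.23, while 52.9% of all probe sets did. Without replicate 1 of 100 µM at 24 h, the array that stood apart, 13 of the 17 did, with a median of 0.11, and without replicate 2 of 30 µM also 13, with a median of 0.10. At 72 h 16 of the 17 were lower with 100 than with 30 µM, with a median of -0.22, while 47.8% of all probe sets were. The median was -0.33 without replicate 1 and -0.09 without replicate 2 of 100 µM, with 17 and 14 of the 17 below 0. The exception was Sqle (0.10). None of the 17 passed, the lowest values being those of Hsd17b7 (-0.72, 95% interval -1.58 to 0.13), Dhcr7 (-0.42) and Lss (-0.40). Other probe sets of Nsdhl (-0.79, adjusted p = 0.0243) and Sc5d (-0.82, adjusted p = 0.0159) fell in this comparison, in which 1.25% of all probe sets rose and 1.85% fell. Among the arrays with 100 µM at 72 h, replicate 1 stood above replicate 2 in 16 of the 17 genes. Without that replicate 1 the calls between the doses among the 29 genes were 4 in place of 1, and with the replicate number as a block they were also 4, with Npc2 higher (0.54, adjusted p = 0.0149) and Hsd17b7 (adjusted p = 0.0498) and Dhcr7 (adjusted p = 0.0428) lower with 100 µM. The difference of Hsd17b7 was smaller in its other probe set (-0.15).

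Among the regulators Srebf2 (1371979_at) and Scap (1389567_at) showed no call against DMSO in the fit of all arrays. Srebf2 changed by -0.06, 0.05, -0.14 and -0.24 and Scap by -0.01, -0.08, -0.01 and -0.06, and the 95% intervals of these 8 values lay within -0.48 and 0.30. Srebf2 fell with 100 µM at 72 h, however, without replicate 1 of that group (-0.39, adjusted p = 0.0092) and with weighted arrays (-0.33, adjusted p = 0.0144). These are levels of mRNA, and the cleavage that activates SREBP-2 was not measured. The paralogs Insig1 and Insig2, both of which retain the SREBP complex, moved in opposite directions with 100 µM at 72 h.

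Insig1 (1367894_at), itself a known SREBP target, read 11.20, 10.50 and 10.89 with DMSO at 24 h, 12.16, 11.36 and 11.30 with 30 µM, and 12.15, 11.64 and 11.61 with 100 µM. By 72 h Insig1 stood at 10.58, 10.58 and 10.50 with DMSO, 11.81, 11.91 and 11.67 with 30 µM, and 12.05, 12.10 and 11.96 with 100 µM. All EMD arrays lay above the DMSO arrays of their time, and at 72 h the groups were in the order of dose with no overlap. The rises were 0.74 ± 0.20 (adjusted p = 0.0413), 0.93 ± 0.20 (0.00836), 1.24 ± 0.20 (0.000329) and 1.48 ± 0.20 (2.80-fold, 6.54e-05). At 24 h the call with 100 µM was lost without replicate 2 of DMSO (adjusted p = 0.056) or replicate 1 of 100 µM (0.0501). That with 30 µM was lost without replicate 2 (0.178) or 3 (0.0929) of DMSO, replicate 1 of 30 µM (0.177) or any of 6 arrays at 72 h (0.0512 to 0.0545). The difference between the doses at 72 h, 0.25, and those between the times, 0.50 and 0.55, did not pass.

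Insig2 (1393690_at) read 9.94, 9.45 and 9.72 with DMSO at 24 h, 9.91, 9.46 and 9.65 with 30 µM, and 9.78, 9.55 and 9.52 with 100 µM, and these groups overlapped. At 72 h it read 10.51, 10.59 and 10.14 with DMSO, 10.33, 10.02 and 9.68 with 30 µM, and 9.70, 9.64 and 9.56 with 100 µM. The level in DMSO cultures rose from 24 to 72 h by 0.71 ± 0.17, and with 100 µM at 72 h it was lower than with DMSO by a change of -0.78 ± 0.17 (adjusted p = 0.00324), close to the values at 24 h. The change with 30 µM, -0.41, did not pass (adjusted p = 0.115) but did with the replicate number as a block (adjusted p = 0.0292). Another probe set of Insig2 fell by 0.88 with 100 µM at 72 h and rose with time in DMSO by 0.80.

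Soat1 (1374976_a_at), which esterifies cholesterol for storage in lipid droplets, had the largest change of the 29 genes. It read 3.33, 3.51 and 3.93 with DMSO at 24 h, 4.32, 4.54 and 4.25 with 30 µM, and 4.49, 4.71 and 4.66 with 100 µM, all under the median probe set. At 72 h it read 5.77, 4.44 and 4.40 with DMSO, 6.09, 5.83 and 6.26 with 30 µM, and 7.28, 8.52 and 8.48 with 100 µM. EMD arrays lay above DMSO arrays at both times, and at 72 h the doses did not overlap. The change with 100 µM at 72 h was 3.22 ± 0.33 (9.35-fold, adjusted p = 3.05e-06), and 100 exceeded 30 µM by 2.03 ± 0.33 (4.09-fold, adjusted p = 0.00466), the only call among the 29 between the doses. With 30 µM at 72 h the rise was 1.19 ± 0.33 (adjusted p = 0.0174), which did not pass without DMSO 72 h replicate 2 (0.0899), DMSO 72 h replicate 3 (0.0819) or EMD 30 µM 72 h replicate 3 (0.0716). The changes at 24 h, 0.78 and 1.03, did not pass in the fit of all arrays. Both passed in a fit on the compared arrays alone (adjusted p = 0.034 and 0.00677). That with 100 µM also passed with weighted arrays (0.0262) and without replicate 1 of DMSO (0.0182) or of 100 µM (0.0263) at 72 h. The changes of another probe set of Soat1 at 24 h were -0.08 and -0.01. That probe set rose by 0.76 with 30 µM and by 2.53 with 100 µM at 72 h.

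Of the efflux genes 1 rose at 24 h, with 30 µM (Abcg1), 0 with 100 µM, and 3 of 4 rose at 72 h with either dose (Abca1, Abcg1 and Abcg5). Of all probe sets 3.35% and 3.06% rose with 30 and 100 µM at 24 h, and more, 7.88% and 7.42%, at 72 h. Abca1 (1383355_at), which loads cholesterol onto apolipoprotein A-I, read 8.25, 8.76 and 8.50 with DMSO at 24 h, 8.43, 8.90 and 8.77 with 30 µM, and 8.46, 8.84 and 8.84 with 100 µM, with overlap throughout. At 72 h it read 7.92, 8.19 and 8.16 with DMSO, 9.05, 9.02 and 8.82 with 30 µM, and 9.12, 9.18 and 8.91 with 100 µM, and the DMSO arrays lay below all others. The rises at 72 h were 0.87 ± 0.15 (adjusted p = 0.000482) and 0.98 ± 0.15 (adjusted p = 0.000181). The other 3 probe sets of Abca1 rose by 1.38 to 1.55 with 30 µM and by 1.43 to 1.67 with 100 µM. The difference between the times was 0.68 with 30 µM (adjusted p = 0.159) and 0.77 with 100 µM (0.12) and did not pass, whereas it passed for 1 of the other probe sets (1384381_at), at 1.15 and 1.33.

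Abcg1 (1368103_at), which passes cholesterol to lipoprotein particles, read 4.23, 3.75 and 3.88 with DMSO at 24 h, 4.37, 4.81 and 4.91 with 30 µM, and 4.16, 4.34 and 4.47 with 100 µM, all under the median probe set. Its levels at 72 h stood at 4.80, 4.58 and 4.52 with DMSO, 6.69, 7.06 and 7.14 with 30 µM, and 6.48, 6.31 and 7.24 with 100 µM. The EMD arrays at 72 h lay well above every other array. The rises there were 2.33 ± 0.21 (5.03-fold, adjusted p = 6.31e-07) and 2.04 ± 0.21 (4.12-fold, adjusted p = 3.2e-06). Abcg1 has 2 more probe sets, dimmer ones, whose changes at 72 h were 0.48 (called) and 0.11 with 30 µM and 0.12 and 0.17 with 100 µM, so that the size of the rise rests on 1 probe set. With the mean of the 3 probe sets the rises at 72 h were 0.97 and 0.78 and still passed. The rise at 24 h with 30 µM, 0.74 ± 0.21, was near the threshold (adjusted p = 0.0486) and did not pass with that mean (0.453) or without any of 12 arrays, with an adjusted p up to 0.197 (replicate 3 of 30 µM at 24 h).

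Abcg5 (1369455_at) read 4.21, 4.13 and 4.22 with DMSO at 72 h, 4.75, 5.09 and 4.48 with 30 µM, and 4.68, 4.77 and 5.11 with 100 µM, and rose by 0.59 ± 0.15 and 0.67 ± 0.15. The first of these did not pass without replicate 2 of 30 µM (0.43, adjusted p = 0.0631). The groups did not overlap, but most of these values lie under the median probe set. Abcg8 (1369440_at), its partner on the other side of the 205 bases shown above, changed by 0.05 and 0.06, with 95% intervals of -0.24 to 0.35 and -0.24 to 0.35. It read 4.12, 4.13 and 4.25 with DMSO at 72 h and 4.09 to 4.48 in the EMD groups, where the groups overlapped. Both are dim probe sets, and the difference between the responses of the partners was not tested.

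Of the uptake and transport genes, Npc2 (1398892_at), which hands cholesterol out of lysosomes, rose with 100 µM at 72 h by 0.66 ± 0.16 (adjusted p = 0.00919), which was 0.48 (0.0512) without replicate 3 of DMSO. It read 11.04, 10.64 and 10.32 with DMSO at 72 h, 10.85, 10.83 and 10.67 with 30 µM, and 11.40, 11.39 and 11.18 with 100 µM, where the last group lay above the others. Scarb1, the receptor that takes up cholesterol from high-density lipoprotein, had changes from -0.16 to 0.16, and Stard4, a cytosolic sterol carrier and SREBP target, from -0.01 to 0.30. Neither passed.

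In DMSO cultures 7 of the 29 genes were called between the times, near the share of all probe sets. From 24 to 72 h, Fdps (0.45), Fdft1 (0.65), Nsdhl (0.53), Insig2 (0.71), Soat1 (1.28) and Abcg1 (0.68) rose and Scap fell by 0.44, while 11% of all probe sets rose and 10.7% fell. When 1 array was left out, the count ran from 3 to 8. It was 3 without replicate 2 and 4 without replicate 1 of DMSO at 72 h, and the call that held under all alternatives was that of Insig2. The rises of Fdps, Nsdhl and Abcg1 did not pass without replicate 2 of DMSO at 24 h or without replicate 1 or 2 at 72 h, and that of Fdft1 without replicate 2 of either (adjusted p from 0.0593 to 0.208). Without replicate 2 at 24 h, the array that stood apart, 2 genes rose and 3 fell in place of 6 and 1, with Cyp51 (-0.62, adjusted p = 0.0492) and Sc5d (-0.48, adjusted p = 0.0255) falling beside Scap, and the rise of Fdps was 0.22. With the replicate number as a block, Hsd17b7 rose (0.92, adjusted p = 0.00353) and Abca1 fell (-0.41, adjusted p = 0.0175). Averaged over their probe sets, Abcg1 (0.17) and Scap (-0.22) did not pass. A further 4 genes were called only through another of their probe sets. The excess of the 3′ over the 5′ probe set of beta-actin, a reading of RNA quality, also differed between these groups. It was 1.28 to 1.36 with DMSO at 24 h and 0.64 to 0.73 at 72 h, and its part in these changes was not tested.

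The response to EMD differed between the times for Abcg1 and Soat1 by the test. At 24 h the probe sets used read 3.75 to 4.91 (Abcg1) and 3.33 to 4.71 (Soat1), under the median probe set, where changes are understated. The part of this in the differences was not tested. The response of Abcg1 to 30 µM was larger at 72 h than at 24 h by 1.59 ± 0.30 (adjusted p = 0.0164), 1 of the 29 genes against 0.412% of all probe sets higher and 0.528% lower. For 100 µM these were 2 of 29, Abcg1 by 1.68 ± 0.30 (adjusted p = 0.0155) and Soat1 by 2.19 ± 0.46 (adjusted p = 0.0403), against 0.245% and 0.448%. With the mean of the probe sets of Abcg1 the value for 100 µM was 0.62 and did not pass (adjusted p = 0.0759). Both counts were 0 without replicate 2 of DMSO at 72 h (adjusted p of Abcg1 = 0.0501 and 0.0558). The call for 30 µM was also lost without replicate 2 (0.0545) or 3 (0.05) of 30 µM at 72 h. The call of Soat1 was lost under 17 of the 26 alternatives, 15 of them leaving out 1 array (adjusted p from 0.0526 to 0.119), and held without replicate 1 of either DMSO group or of 100 µM at 72 h. Its adjusted p was 0.142 in a fit on the compared arrays alone, and its other probe set passed at 2.55 (adjusted p = 0.00148). No synthesis gene passed. With the replicate number as a block, Abca1 passed too, at 0.68 (adjusted p = 0.0388) and 0.77 (adjusted p = 0.0281), and the response of Nsdhl to 100 µM was smaller at 72 h (-0.74, adjusted p = 0.0259). With 100 µM 15 of the 17 had a smaller change at 72 h than at 24 h, with a median of -0.33, while 45.4% of all probe sets did. Without replicate 2 of DMSO at 24 h, 12 of the 17 did, with a median of -0.20. With 30 µM 8 of the 17 had a smaller change at 72 h, near the share of all probe sets (44.3%). The sign of the median of the 17 depended on single arrays.

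**Figure D4:**
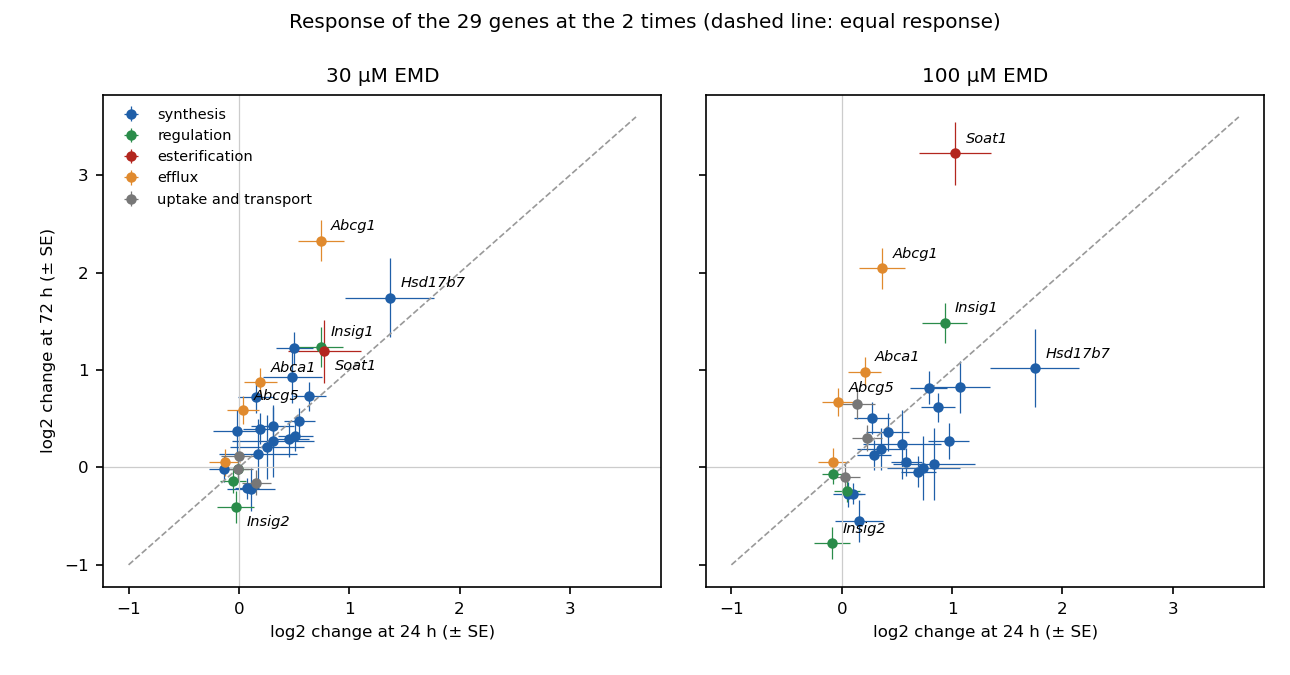
Log2 change with EMD against DMSO at 24 h (horizontal) and at 72 h (vertical) for the 29 genes, coloured by role, with the standard error of each as bars; the dashed line marks equal changes. With 100 µM, 15 of the 17 synthesis genes (blue) lie below the line, and Soat1, Abcg1 and Abca1 lie above it at both doses.

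Within groups, the synthesis genes tended to be high on the same arrays, more so at 24 h. With DMSO, 30 and 100 µM, the highest array had 15, 16 and 16 of the 17 above the group mean at 24 h. At 72 h it had 11, 11 and 15. After subtraction of each gene's group mean, the 136 pairs of synthesis genes had a median correlation of 0.65 over the 18 arrays (Spearman 0.64), with 133 pairs above 0, while the median between synthesis genes and all other probe sets was -1e-04. Dhcr7 (median 0.17) and Tm7sf2 (0.21) followed the other synthesis genes least. The arrays share their hybridisation and normalization, so these are descriptions. Arrays of the same replicate number also deviated together over all probe sets (median correlation 0.37, against -0.22 for different numbers). The 18 deviations are therefore not 18 separate observations. Correlations with the synthesis genes had a median of 0.68 for Insig1, 0.66 for Stard4 and -0.71 for Abca1, where 16 of 17 were below 0. The other 3 probe sets of Abca1 had medians from -0.79 to -0.61. Without DMSO 24 h replicate 2 and EMD 100 µM 24 h replicate 1, the arrays farthest out, the medians were 0.57 among synthesis genes, 0.57 with Insig1 and -0.59 with Abca1.

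The median correlations with Insig1 and Stard4 were high at 24 h, and weak and below 0 at 72 h. Over the 9 arrays at 24 h alone the median correlation was 0.81 among synthesis genes, 0.83 with Insig1, 0.90 with Stard4 and -0.86 with Abca1. Over the 9 arrays at 72 h it was 0.47 among synthesis genes, with 114 of 136 pairs above 0, but -0.23 with Insig1, -0.37 with Stard4 and -0.24 with Abca1, where 13 of 17 were below 0. Insig1 varied little within groups at 72 h, with an SD of 0.04 to 0.12 against 0.30 to 0.48 at 24 h. Whether these correlations at 72 h differ from 0, or from those at 24 h, was not tested. Between the groups, by contrast, Insig1 and Abca1 rose together with 6 of the 17 synthesis genes with 30 µM and with 4 of the 17 with 100 µM at 72 h.

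**Figure D5:**
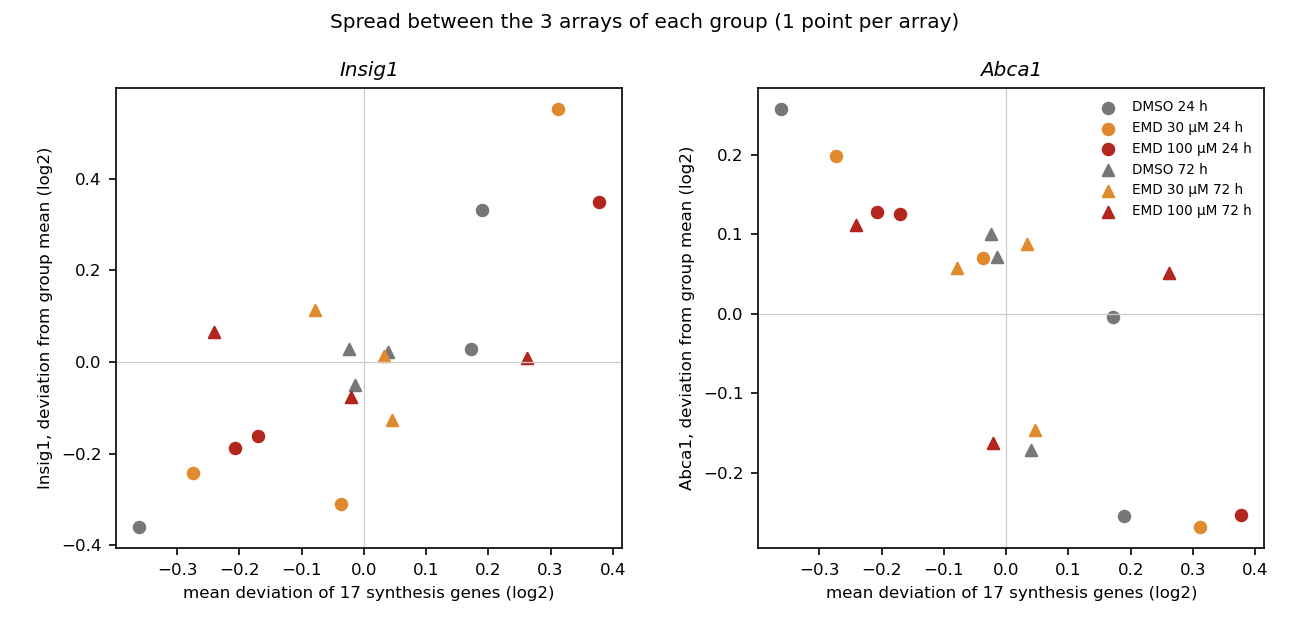
Deviation of Insig1 (left) and Abca1 (right) from its group mean against the mean deviation of the 17 synthesis genes, in log2 units, with 1 point per array, circles for 24 h and triangles for 72 h. At 24 h Insig1 runs with the synthesis genes and Abca1 against them, with median correlations of 0.83 and -0.86.

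Genes next to this set were read from lists of known function. With 30 and 100 µM at 24 h and then at 72 h, 3.35%, 3.06%, 7.88% and 7.42% of all probe sets rose. In the same order 2.01%, 2.95%, 9.22% and 9.68% fell. Of 6 genes of the SREBP processing machinery 0 rose in any comparison with DMSO, and 1 fell, Erlin1 with 30 µM at 72 h (-0.66), a partner of the Insig complex. Of 8 genes of LXR and oxysterol biology 2, 2, 3 and 3 rose and 0, 1, 0 and 1 fell in the order of the plot of changes. Lpcat3, a phospholipid-remodelling enzyme and LXR target, rose by 1.95, 2.14, 1.66 and 1.87, and the receptor LXRα (Nr1h3) by 0.51, 0.54, 0.77 and 0.58. Nr1h2, the other LXR, rose with 30 µM at 72 h (0.49), and Abcg4, a transporter whose probe set is dim, with 100 µM at 72 h (0.23). Cyp27a1, a mitochondrial enzyme that makes an oxysterol, changed by -0.81 with 100 µM at 24 h and by -0.72 at 72 h.

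Of 15 genes of other sterol handling 4, 4, 5 and 5 rose, against 3.35%, 3.06%, 7.88% and 7.42% of all probe sets. In the same order 1, 2, 5 and 6 of the 15 fell, against 2.01%, 2.95%, 9.22% and 9.68%. Nceh1, a hydrolase of cholesterol esters, rose by 2.27, 2.21, 1.84 and 1.44, while the enzyme that forms such esters, Soat1, rose at 72 h. Lrp1, an endocytic receptor for lipoprotein remnants, rose by 1.62 and 1.57 at 24 h and by 1.76 with 30 µM at 72 h. Por, which passes electrons to Cyp51 and other cytochromes, rose by 0.83, 0.97, 1.50 and 1.27, and Vldlr, a lipoprotein receptor, by 1.45 and 1.54 at 72 h. Osbpl2, an oxysterol-binding protein, fell by 0.60 and 0.65 at 24 h. Lcat, which esterifies cholesterol in plasma lipoproteins, changed by -2.60 with 100 µM at 72 h.

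Macrophages also express Abca1, Abcg1, Soat1 and Npc2. Of 12 macrophage markers 10 were measured. In the comparisons with DMSO 3.06% to 7.88% of all probe sets rose, and 0 of the 10 markers did. Their summed linear level ran from 2484 to 3400 with DMSO at 24 h, from 1485 to 1843 with 30 µM and from 1500 to 1862 with 100 µM. At 72 h it was 1520 to 2520, 890.5 to 1164 and 885.5 to 941.8. At 72 h the sum was lower with EMD. Abca1, Abcg1 and Soat1 were higher at both doses and Npc2 at 100 µM, and the part of macrophages in these rises was not tested. A linear sum is weighted to the brightest markers, at 72 h Lyz2 and Cd14. The mean of Cd14 was 9.02 with DMSO, 8.96 with 30 µM and 8.18 with 100 µM at 72 h. Cd163, Csf1r and Ptprc lay under the median probe set in all groups, and Cd14 and Lyz2 lay above it, as did Cd68. At 72 h the mean of Lyz2 was 9.90 with DMSO, 8.07 with 30 µM and 8.22 with 100 µM, and that of Cd68 was 6.84, 6.53 and 7.23. With 100 µM at 72 h 3 of the 10 markers had a change above 0 and 2 fell, against 54.7% and 9.68% of all probe sets. RNA quality, read as the excess of the 3′ over the 5′ probe set of beta-actin, differed by time, with 1.22 to 1.39 at 24 h, and at 72 h 0.64 to 0.73 in DMSO arrays and 0.82 to 0.89 in EMD arrays. Its part in the results at 72 h was not tested.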

How the data were processed

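Total RNA of 18 cultures was hybridised to Affymetrix rat arrays, 3 in each of 6 groups. The authors condensed the probes by RMA, and the deposited values are log2 expression estimates, already normalized between arrays, for 31099 probe sets. The scanner intensities were not used here, so detection per array is unknown. Without 57 controls, 31042 probe sets entered the tests. Of these 20826 have 1 gene symbol in the platform annotation, 436 several and 9780 none, and symbols came from the first alone.

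A linear model of 6 group means was fitted to all 18 arrays with limma 3.58.1 (R 4.3.3), and 9 contrasts were tested with its moderated test, two-sided, with Benjamini-Hochberg adjustment over all probe sets of a contrast and a threshold of 0.05. Intervals are at 95%. The script was tested on simulated data. By the methods, the 3 arrays of a group are biological replicates and the cells of each animal received every treatment. Which number is which animal is not stated, and numbers were a block in an alternative fit. At the same time 18 pairs of arrays carry 1 number, and 16 of them deviated together from their group means by a correlation over 0.1 (median 0.37, range 0.01 to 0.63), against a median of -0.22 for different numbers. The number of arrays limits the precision. No arrays of a group were alike enough to be 1 sample (root mean square differences from 0.208 to 0.363).

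The genes and the lists were chosen with earlier results of these data known. Any of the 29 genes may be named. Of each list, up to 4 called genes with the largest change in a comparison of EMD with DMSO were named, and the gene's other probe sets where they differed. Alternatives were cyclic loess, equal array medians, dim probe sets left out, moderation with trend and robust estimation, array weights, replicate number as a block, the mean of a gene's probe sets, the compared arrays alone, and each array left out. Promoter windows were searched with Python 3.11.15 and plots drawn with matplotlib 3.10.9.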

Additional observations from a re-analysis of the deposited data

Results flagged for a closer look

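The response to EMD differed between 24 and 72 h, by limma's test of the difference itself, for 2 of the 29 genes. The response of Abcg1 to 30 µM was larger at 72 h by 1.59 (adjusted p = 0.0164) and its response to 100 µM by 1.68 (adjusted p = 0.0155), both through 1 of its 3 probe sets. With the mean of the 3, the value for 100 µM was 0.62 and did not pass (adjusted p = 0.0759). The response of Soat1 to 100 µM was larger at 72 h by 2.19 (adjusted p = 0.0403), and its other probe set gave 2.55 (adjusted p = 0.00148). At 24 h the probe sets used for both genes lay under the median probe set on every array, where changes are understated. In groups of 3 arrays, no search for single outlying arrays was made.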

How the results depend on the processing

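Over 29 genes and 9 comparisons there were 45 calls, of which 20 were kept under all 26 alternatives and 25 were lost under at least 1. A further 28 values gained a call under at least 1, and 0 called values changed direction. With cyclic loess, equal array medians, dim probe sets left out and the mean of a gene's probe sets, counts of called genes stayed within 1.5 times those reported. Arrays were left out in fits without the replicate number as a block. Leaving out 1 array moved the count with 30 µM at 24 h from 4 to between 1 and 6, with 100 µM at 24 h from 8 to between 3 and 9, with 30 µM at 72 h from 11 to between 8 and 12, and with 100 µM at 72 h from 11 to between 8 and 12. Between the doses at 72 h it ran from 1 to 4, for time in DMSO from 3 to 8, and for the difference in response between the times from 0 to 1 (30 µM) and from 0 to 3 (100 µM). In fits on the compared arrays alone, the count with 30 µM at 24 h was 1 and that for the difference in response to 100 µM was 1, as it was with trend and robust moderation. Array weights gave 5 calls between the doses at 72 h and 4 for the difference in response to 100 µM. The cause of these shifts was not tested.

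With the replicate number as a block there were 4 calls between the doses at 72 h (Soat1 and Npc2 higher, Hsd17b7 and Dhcr7 lower with 100 µM), 2 for the difference in response to 30 µM and 4 for that to 100 µM, and the other counts stayed within 1.5 times. It removed none of the 45 calls and changed no call but those given with the results. Of 18 arrays 17 correlated best with their own number.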

Other observations

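Isoprenoids made by Fdps also feed dolichol, ubiquinone and protein prenylation. Of 9 genes of these branches 0 rose at 24 h. With 30 µM at 72 h Dhdds, of dolichol synthesis, rose by 0.88 and Pdss2, of ubiquinone synthesis, by 0.77. With 100 µM at 72 h Pdss2 rose by 0.71 and Icmt, which methylates prenylated proteins, by 0.36. None of the 9 fell in these comparisons. At 72 h 7.88% of all probe sets rose and 9.22% fell with 30 µM, and 7.42% rose and 9.68% fell with 100 µM.

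Of 12 genes of SREBP-1 and fatty acid synthesis, the sister route, 4, 5, 7 and 7 rose with 30 and 100 µM at 24 h and with 30 and 100 µM at 72 h, and 2, 1, 0 and 0 fell. Of all probe sets 3.35%, 3.06%, 7.88% and 7.42% rose and 2.01%, 2.95%, 9.22% and 9.68% fell in these comparisons. Elovl6, a fatty acid elongase, rose by 2.75, 3.45, 2.42 and 2.88, and Me1, malic enzyme, by 1.64, 1.90, 2.62 and 2.88. Scd, the desaturase, rose by 0.82 and 0.85 at 24 h and by 2.09 and 2.11 at 72 h. Acaca, acetyl-CoA carboxylase, fell by 0.71 with 30 µM at 24 h.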
